A study of Homo sapiens with 4 samples.

Results

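The genes described here encode the enzymes that supply the building blocks of DNA, the deoxynucleoside triphosphates (dNTPs), together with the enzyme that breaks dNTPs down. There were 9 members, namely RRM1, RRM2, TYMS, DCTD, DUT, DTYMK, TK1, DCK and SAMHD1, of 17687 genes measured on the arrays. They were chosen by name, with earlier results of these data known. Each member had 1 probe set with that symbol as its only gene, and all 9 lay above the background floor on all 4 arrays. The floor was a log2 signal of 5.34, the 95th percentile of 349 olfactory receptor genes.

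The cells were THP-1, a line of human monocytic leukaemia, which the labels class as lymphocyte-like although monocyte and macrophage markers such as CD14, CD68 and LYZ lay well above the floor. Every group was differentiated over 2 days with PMA, a phorbol ester at 100 ng/ml that drives THP-1 towards adherent macrophages, before 24 h of transfection, by cationic lipid, of a synthetic microRNA or its negative control. The groups were the let-7d-5p mimic, the miR-27b-3p mimic, the miR-151a-5p mimic and the negative control mimic, with 1 array each, so no spread between cultures could be estimated and no p-value is given. The sample title names let-7d-5p whereas the treatment text names let-7a-5p, and which mimic this array carries could not be settled. The study itself names let-7a-5p and let-7d-3p but no let-7d-5p, so the name let-7d-5p is used here only as the title of that array. A mimic is a short RNA that is loaded into Argonaute and lowers mRNAs whose sequence pairs with its seed, bases 2 to 8. The seeds are shown in capitals because let-7d-5p and let-7a-5p, the names in the labels, differ in 2 of 22 bases but share the seed, and miR-27b-3p has another. The seed of the mimic on that array is known only if it was one of these, since let-7d-3p, which comes from the other arm of its hairpin, is another sequence. The sequences are those of RefSeq (GRCh38.p14, plus strand), at chr9:94178841-94178862 for let-7d-5p, chr9:94175962-94175983 for the copy of let-7a-5p from MIRLET7A1 and chr9:95085505-95085525 for miR-27b-3p.
let-7d-5p: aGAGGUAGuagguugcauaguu
let-7a-5p: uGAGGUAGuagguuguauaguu
miR-27b-3p: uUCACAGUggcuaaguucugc

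A cell makes dNTPs along a de novo route, in which ribonucleotide reductase converts ribonucleotides to deoxyribonucleotides, and along a salvage route, in which deoxynucleosides are phosphorylated by kinases. Both routes are used most in S phase, when DNA is copied, and several of the enzymes are made mainly in dividing cells. Macrophages hardly divide and keep their dNTP pools low, in part through SAMHD1, which cleaves dNTPs and is known for limiting HIV infection of myeloid cells.

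The clearest difference was on the miR-151a-5p array, on which 8 of 9 genes were higher than on the control array and DCTD alone was lower, by 0.04 on the log2 scale. The median log2 difference of the members was 0.79 (1.73-fold), against -0.01 for all genes, of which 47.3% were higher. With miR-27b-3p 6 members were lower and 3 higher, with a median of -0.32 (1.25-fold lower), against 0.01 for all genes, of which 48.4% were lower. With let-7d-5p 6 were higher and 3 lower, with a median of 0.20 (1.15-fold), against 0.00 for all genes, of which 49.2% were higher. At 2-fold or more, TK1 and RRM2 stood above the control with miR-151a-5p, which is 2 of 9 members against a background of 0.972% of all genes, and 0 members were lower (0.328% of all genes). RRM1 at 0.98 and TYMS at 0.95 lay just short of 2-fold there. With let-7d-5p 0 of 9 members were 2-fold higher (0.588% of all genes) or lower (0.407%), and with miR-27b-3p 0 of 9 were 2-fold higher (0.605%) or lower (0.503%). These 3 comparisons share 1 control array, so an error of that array would enter all of them. For scale, the standard deviation of the log2 differences over genes above the floor was 0.30 for let-7d-5p, 0.33 for miR-27b-3p and 0.32 for miR-151a-5p, a spread over genes and not over cultures.

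**Figure D1:**
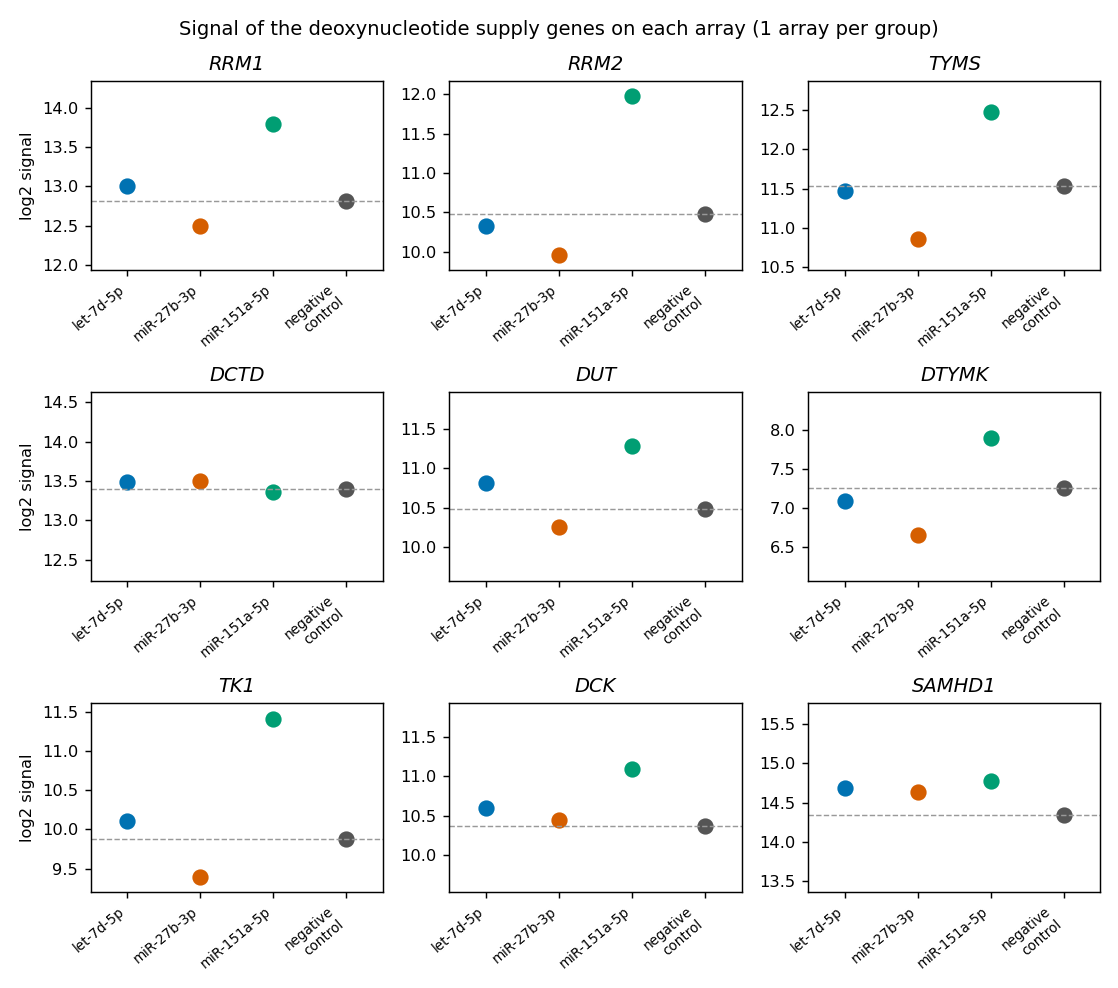
Log2 signal of each of the 9 genes (vertical axis, the same span in every panel but not the same level) on each of the 4 arrays, from left to right the 3 mimics and the negative control, 1 point per array, with the control level as a dashed line. TK1, RRM2, TYMS, RRM1, DTYMK and DUT were highest on the miR-151a-5p array and lowest on the miR-27b-3p array, whereas DCTD spanned only 0.14.

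Ribonucleotide reductase consists of a large subunit, encoded by RRM1, which holds the active site, and a small subunit, encoded by RRM2, which provides the radical and in dividing cells is made from S phase on and then degraded. RRM2 (probe set TC0200006677.hg.1) had log2 signals of 10.33 with let-7d-5p, 9.96 with miR-27b-3p and 11.98 with miR-151a-5p, against 10.48 on the control array. The miR-151a-5p array thus stood 1.5 above the control (2.83-fold), and the other 3 arrays lay within 0.52 of each other. Only 6 of all genes were higher by more on the miR-151a-5p array. RRM1 (probe set TC1100006644.hg.1) had log2 signals of 13.01, 12.49 and 13.79 with let-7d-5p, with miR-27b-3p and with miR-151a-5p, against 12.81 on the control array. It was 1.97-fold higher on the miR-151a-5p array (log2 difference 0.98) and 1.25-fold lower on the miR-27b-3p array (-0.32). The subunits did not move by equal amounts, since the log2 difference of RRM2 on the miR-151a-5p array exceeded that of RRM1 by 0.52 (1.43-fold), and on the let-7d-5p array RRM2 was lower (-0.15) while RRM1 was higher (0.20).

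Thymidylate is made by TYMS, thymidylate synthase, which methylates dUMP and is the target of fluorouracil. TYMS (probe set TC1800006448.hg.1) had log2 signals of 11.47 with let-7d-5p, 10.86 with miR-27b-3p and 12.48 with miR-151a-5p, against 11.53 on the control array. It was 1.93-fold higher with miR-151a-5p (0.95) and 1.59-fold lower with miR-27b-3p (-0.67), the lowest difference of the 9 members on that array, where 3.02% of all genes lay lower. With let-7d-5p it differed by -0.06. TYMS overlaps the genes ENOSF1 and TYMSOS in RefSeq, and whether its probes also detect those transcripts was not tested.

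The dUMP used by TYMS comes from DCTD, which deaminates dCMP, and from DUT, the dUTPase that also keeps uracil out of DNA. DCTD (probe set TC0400012551.hg.1) had log2 signals of 13.49 with let-7d-5p, 13.50 with miR-27b-3p and 13.36 with miR-151a-5p, against 13.40 on the control array. Its range over the 4 arrays was 0.14, at or below which lay 8.84% of the 11112 genes above the floor on all arrays, whose median range was 0.37. DUT (probe set TC1500007163.hg.1) had log2 signals of 10.82, 10.26 and 11.28 with let-7d-5p, with miR-27b-3p and with miR-151a-5p, against 10.49 on the control array. It was 1.73-fold higher with miR-151a-5p (0.79), 1.26-fold higher with let-7d-5p (0.33) and 1.17-fold lower with miR-27b-3p (-0.23). Both sources of dUMP therefore differed in pattern, DCTD being nearly level and DUT following TYMS in both the miR-151a-5p and the miR-27b-3p comparison.

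DTYMK (probe set TC0200016369.hg.1), thymidylate kinase, phosphorylates the dTMP of both routes to dTDP. It had log2 signals of 7.09 with let-7d-5p, 6.66 with miR-27b-3p and 7.89 with miR-151a-5p, against 7.25 on the control array. It was 1.56-fold higher with miR-151a-5p (0.64) and 1.51-fold lower with miR-27b-3p (-0.59), with -0.16 for let-7d-5p. It lay more than 1 log2 unit above the background floor on every array.

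In the salvage route TK1, the cytosolic thymidine kinase of dividing cells, makes dTMP from thymidine, and DCK phosphorylates deoxycytidine and the purine deoxynucleosides and activates drugs such as cytarabine. TK1 (probe set TC1700011892.hg.1) had log2 signals of 10.11 with let-7d-5p, 9.40 with miR-27b-3p and 11.41 with miR-151a-5p, against 9.88 on the control array. With miR-151a-5p it was 2.89-fold higher (1.53), and 4 of all genes were higher by more. TK1 was 1.39-fold lower with miR-27b-3p (-0.48), and with let-7d-5p it differed by 0.23. DCK (probe set TC0400012811.hg.1) had log2 signals of 10.60, 10.44 and 11.09 with let-7d-5p, with miR-27b-3p and with miR-151a-5p, against 10.37 on the control array. It was 1.65-fold higher with miR-151a-5p (0.72), and was not lower on the miR-27b-3p array (0.07), where TK1 was. The log2 difference of TK1 exceeded that of DCK by 0.81 on the miR-151a-5p array (1.75-fold) and fell short of it on the miR-27b-3p array, at -0.55, whereas on the let-7d-5p array both were 0.23.

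SAMHD1 (probe set TC2000009023.hg.1), the dNTP hydrolase, had log2 signals of 14.69 with let-7d-5p, 14.64 with miR-27b-3p and 14.78 with miR-151a-5p, against 14.35 on the control array. It was higher with each mimic, by 0.34 (1.27-fold), 0.29 (1.22-fold) and 0.43 (1.35-fold) in that order, while the 3 mimic arrays differed from each other by 0.14 at most. SAMHD1 and DCK were the 2 of 9 members that were higher on all 3 mimic arrays than on the control, as were 22.7% of all genes, and a single control array would give this pattern to any gene that happened to be low on it. SAMHD1 is induced by interferon in some cell types. All 13 measured interferon-stimulated marker genes were also higher on each mimic array, with medians of 0.63, 0.42 and 0.52 with let-7d-5p, with miR-27b-3p and with miR-151a-5p, among them CXCL10 (1.91, 1.90 and 1.37), IFIT2 (1.12, 1.13 and 0.80) and RSAD2 (1.14, 0.64 and 0.86). Their part in the difference of SAMHD1 was not tested.

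**Figure D2:**
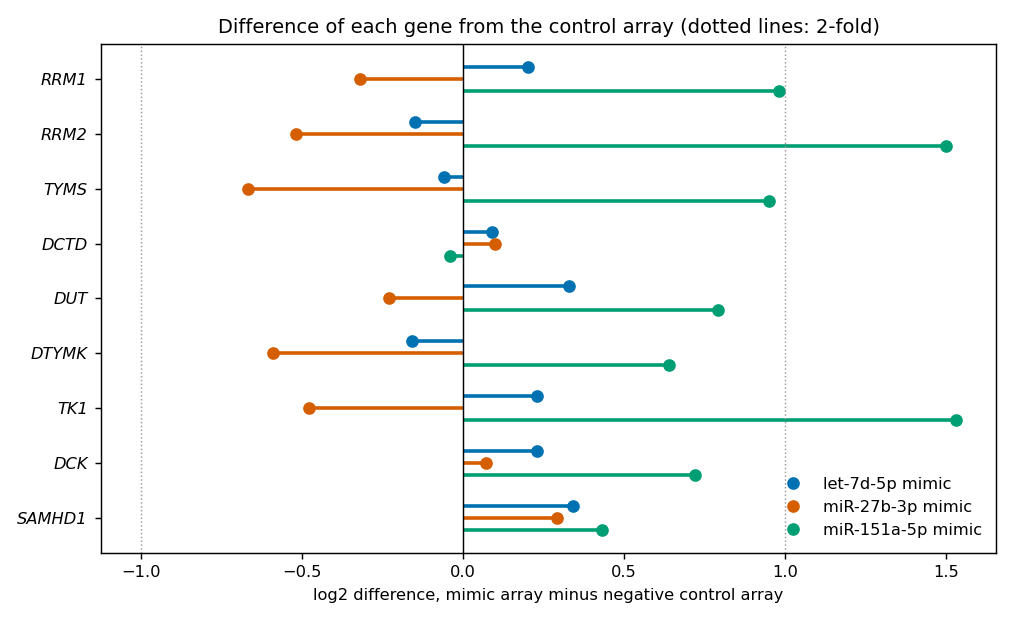
Log2 difference of each gene (horizontal axis) between a mimic array and the negative control array, 1 line per mimic, with dotted lines at 2-fold. On the miR-151a-5p array TK1 (1.53) and RRM2 (1.5) lay beyond 2-fold, and SAMHD1 lay between 0.29 and 0.43 with every mimic.

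Comparisons between mimic arrays do not use the control array. Set against miR-27b-3p, miR-151a-5p gave 8 of 9 members a higher value, and 46.6% of all genes. The median of the members was 1.23 (2.35-fold), against -0.02 for all genes. RRM2 was 4.06-fold higher (2.02), TK1 4.03-fold (2.01), TYMS 3.07-fold (1.62), RRM1 2.46-fold (1.30), DTYMK 2.35-fold (1.23) and DUT 2.03-fold (1.02), so that 6 of 9 members passed 2-fold, against 1.62% of all genes, and 0 were 2-fold lower (0.65% of all genes). Centring each array on the median of its genes above the floor put DUT at 0.99 and the count at 5 of 9. The other members were DCK at 0.65, SAMHD1 at 0.14 and DCTD at -0.14. Between the miR-151a-5p and let-7d-5p arrays the median was 0.78 (1.72-fold), against -0.02 for all genes, and RRM2 (1.65), TK1 (1.30) and TYMS (1.01) were 2-fold higher, which is 3 of 9 against 1.03% of all genes, with 0 of 9 lower (0.464%). Between the miR-27b-3p and let-7d-5p arrays 8 of 9 were lower with miR-27b-3p, with a median of -0.43 (1.35-fold lower), against 49% and 0.00 for all genes, and 0 passed 2-fold higher (0.628% of all genes) or lower (0.548%). TK1 differed most there, at 9.40 with miR-27b-3p and 10.11 with let-7d-5p (-0.71). These comparisons in turn share arrays in pairs.

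Over the 4 arrays, 8 of 9 members had their highest value on the miR-151a-5p array, against 22.7% of all genes, and 6 had their lowest with miR-27b-3p, against 25.4% of all genes. Both held for the same 6 members, RRM1, RRM2, TYMS, DUT, DTYMK and TK1, and for 9.15% of all genes. The range over the arrays was 2.02 for RRM2, 2.01 for TK1, 1.62 for TYMS, 1.30 for RRM1, 1.23 for DTYMK and 1.02 for DUT, and ranges at least as wide as that of DUT were found in 3.59% of genes above the floor. DCK had a range of 0.72 and SAMHD1 of 0.43, and 41.4% of those genes varied at least as much as SAMHD1.

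**Figure D3:**
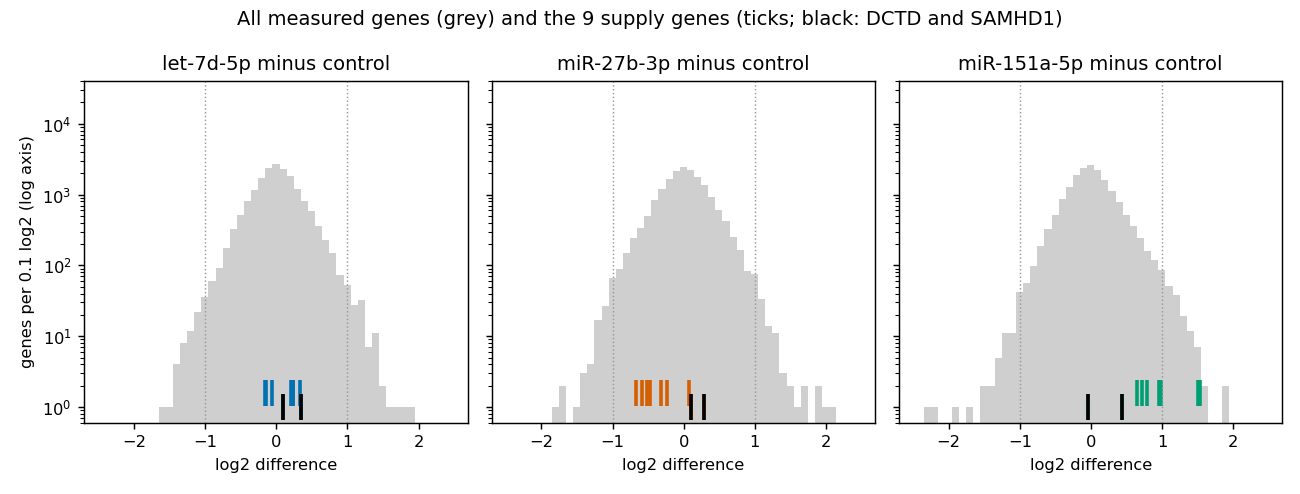
Number of genes (vertical axis, logarithmic, in bins of 0.1) by log2 difference from the control array for each mimic, with a tick for each of the 9 supply genes and dotted lines at 2-fold. Ticks for DCTD and SAMHD1 are black. The ticks of the other 7 genes lie between 0.64 and 1.53 for miR-151a-5p, and between -0.67 and 0.07 for miR-27b-3p.

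The promoters of the genes were searched for the letters of sites that are known from genes of dividing cells, as a description of the DNA and not of binding. The E2F site was taken as TTTCCCGC, TTTCGCGC, TTTGCCGC or TTTGGCGC, the NF-Y box as CCAAT and the cell cycle homology region (CHR) as TTTGAA, on both strands, in RefSeq windows of 250 bases before to 50 after a start site (GRCh38.p14). All 9 members had a window, 15 in all, because DUT, TK1, RRM2 and DCTD have several start sites. E2F letters were found in 3 of 9 members, TYMS, DUT and DCK, and in 3.99% of 27305 genes. A 7-letter form without the first T, added after the promoters had been read and contained in the longer one, was found in 6 of 9 members, RRM1, RRM2, TYMS, DUT, TK1 and DCK, and in 15.3% of genes. The NF-Y box was found in RRM1, RRM2, DTYMK, TK1 and SAMHD1, 5 of 9 members, and in 39.7% of genes, and CHR letters in RRM1 and DUT, against 18.2%. In the windows of DCTD none of these letters were found.

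The stretches from 130 bases before to 30 after the start are shown for TK1 and RRM2, which differed most, for TYMS, DUT and DCK, which hold the E2F letters, and for SAMHD1, which followed another pattern. Where a gene has several start sites, the window with the most matches was taken. All found letters are in capitals. They lie at chr17:78187023-78187182 (minus strand), chr2:10122609-10122768 (plus), chr18:657523-657682 (plus), chr15:48332067-48332226 (plus), chr4:70993519-70993678 (plus) and chr20:36951679-36951838 (minus).
TK1: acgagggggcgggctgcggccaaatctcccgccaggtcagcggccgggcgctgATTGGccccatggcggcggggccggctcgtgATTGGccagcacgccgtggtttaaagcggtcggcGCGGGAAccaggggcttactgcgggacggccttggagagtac
RRM2: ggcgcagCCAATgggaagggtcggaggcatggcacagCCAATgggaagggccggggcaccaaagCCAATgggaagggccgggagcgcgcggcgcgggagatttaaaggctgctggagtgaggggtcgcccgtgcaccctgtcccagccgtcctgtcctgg
TYMS: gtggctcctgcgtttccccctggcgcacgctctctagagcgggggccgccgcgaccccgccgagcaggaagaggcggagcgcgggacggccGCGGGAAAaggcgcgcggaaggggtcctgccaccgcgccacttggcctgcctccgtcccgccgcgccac
DUT: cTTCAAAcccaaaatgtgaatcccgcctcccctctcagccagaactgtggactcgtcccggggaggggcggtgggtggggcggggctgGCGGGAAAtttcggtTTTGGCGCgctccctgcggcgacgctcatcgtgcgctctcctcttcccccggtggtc
DCK: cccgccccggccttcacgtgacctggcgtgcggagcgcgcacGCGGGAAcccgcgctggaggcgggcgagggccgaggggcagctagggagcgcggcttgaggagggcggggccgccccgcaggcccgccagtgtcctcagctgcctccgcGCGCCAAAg
SAMHD1: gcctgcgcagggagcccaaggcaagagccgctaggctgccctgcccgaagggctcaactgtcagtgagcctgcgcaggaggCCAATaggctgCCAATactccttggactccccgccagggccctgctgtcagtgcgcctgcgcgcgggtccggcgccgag

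RRM2 carries 3 CCAAT boxes in this stretch, which begin 123, 93 and 66 bases before the start, and TK1 carries 2, on the other strand, at 77 and 46 bases, beside a 7-letter E2F form at 12 bases. The 7-letter form of RRM2 lies in the window of its other start site, with 1 CCAAT box that begins 249 bases before that start. In the windows of TK1 and DUT that are not shown, none of the searched letters were found. The E2F letters of TYMS begin 39 bases before the start and those of DUT 42 and 27 bases before it, while those of DCK begin at base 22, counted from the start site as base 1. SAMHD1 holds 2 CCAAT boxes, at 49 and 38 bases before the start. Whether any of these letters bear on the array values was not tested.

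**Figure D4:**
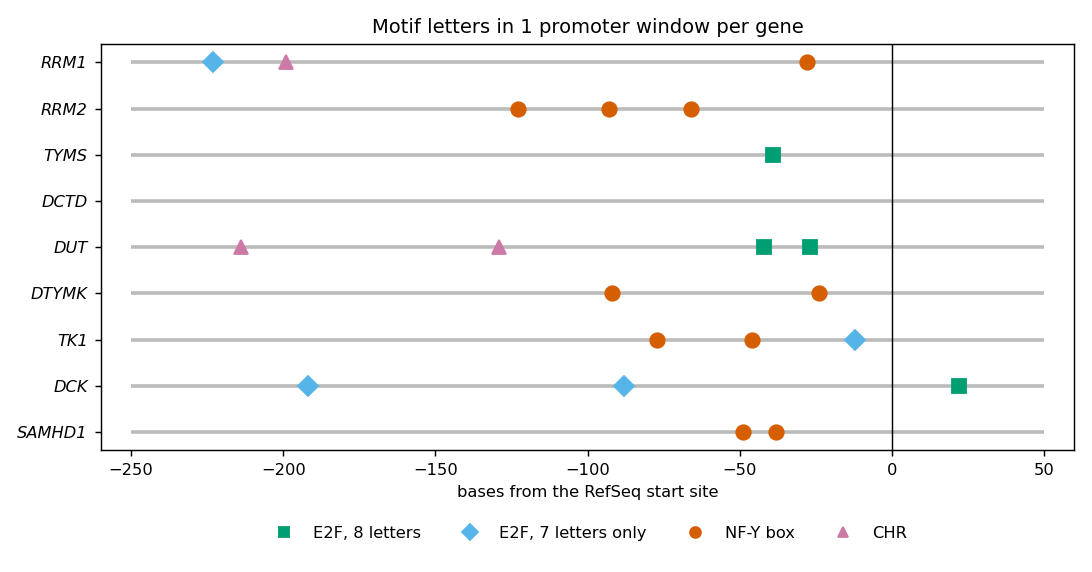
Position of the searched letters in 1 RefSeq window per gene (horizontal axis, bases from the start site, vertical line at the start), with squares for the 8-letter E2F site, diamonds for its 7-letter form alone, circles for the NF-Y box and triangles for CHR. For genes with several start sites, the window with the most matches is drawn. RRM2 shows 3 circles, TYMS 1 square and DUT 2 squares before the start, and DCTD none.

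The 9 genes were set beside 4 further lists of the same pathway. Of all genes, 49.2%, 50.3% and 47.3% were higher than the control with let-7d-5p, with miR-27b-3p and with miR-151a-5p. The shares of all genes that were lower were 49.3%, 48.4% and 51%. Other enzymes of deoxynucleotides, which include mitochondrial kinases, nucleotidases and dNTP-cleaning hydrolases, had medians of 0.06, -0.07 and 0.01 with let-7d-5p, with miR-27b-3p and with miR-151a-5p over 31 measured of 36 listed genes, with 17, 13 and 16 of them higher and 13, 17 and 15 lower. Of them CMPK2, a mitochondrial kinase induced by interferon, was 2.03-fold higher with let-7d-5p (1.02), the 1 gene of these lists past 2-fold from the control, and was at 0.94 with miR-27b-3p and 0.76 with miR-151a-5p. ITPA, which removes deaminated purine nucleotides, differed by -0.64 with let-7d-5p, and NME4, a mitochondrial nucleoside diphosphate kinase, by -0.62.

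The folate cycle that feeds TYMS with methylene groups had medians of 0.03, -0.14 and 0.17, in the same order of mimics, over 11 of 14 genes, of which 6, 3 and 8 were higher. Here and for the lists below, the shares of all genes that were higher were 49.2%, 50.3% and 47.3%. SLC19A1, the reduced folate carrier, had log2 signals of 9.59, 8.55 and 9.84 with let-7d-5p, with miR-27b-3p and with miR-151a-5p, against 9.20 on the control array, and so was 0.65 lower with miR-27b-3p and 0.64 higher with miR-151a-5p. It was the 1 gene of this list past 2-fold between miR-151a-5p and miR-27b-3p (1.29), with the same sign as the 6 supply genes past 2-fold there. GGH, which trims folate polyglutamates, was 0.64 higher with miR-151a-5p, and MTHFS 0.64 higher with let-7d-5p. Synthesis of the ribonucleotide precursors had medians of -0.12, -0.15 and 0.06 over 22 of 25 genes, of which 7, 7 and 15 were higher. In this list stood PPAT, which catalyses the committed step of purine synthesis, and CAD, which carries the opening steps of pyrimidine synthesis, at -0.62 and -0.54 on the miR-27b-3p array, and DHODH at -0.46 on the let-7d-5p array. Transporters had medians of 0.05, -0.06 and 0.16 over 8 of 9 genes, of which 6, 4 and 5 were higher. In this list stood SLC29A1, an equilibrative nucleoside transporter, at -0.54 on the let-7d-5p array, SLC29A3 at 0.31 and SLC28A3 at 0.26 on the miR-27b-3p array. With miR-151a-5p, 0 genes of these 4 lists were 2-fold higher than on the control array, where 0.972% of all genes were, so that the count was near the background.

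Markers of S phase, in a list that also holds MKI67, TOP2A and CCNA2, which mark cycling cells beyond S phase, were set beside the supply genes. With miR-151a-5p all 19 of 19 such genes exceeded the control, as did 47.3% of all genes. Their median was 0.98 (1.97-fold), against -0.01 for all genes, and 8 passed 2-fold (0.972% of all genes), namely CDT1 (1.63), CCNE2 (1.49), CDC45 (1.34), PCNA (1.19), CCNA2 (1.19), GINS2 (1.14), MCM7 (1.14) and CDC6 (1.05). With miR-27b-3p 17 were lower (48.4% of all genes), at a median of -0.57, and with let-7d-5p 11 (49.3% of all genes), at a median of -0.02. MKI67 differed by -0.51 with miR-27b-3p and 0.94 with miR-151a-5p, and TOP2A by -0.68 with miR-27b-3p and 0.86 with miR-151a-5p. The list includes CDKN1A, an inhibitor of the cycle, at 0.43 on the miR-27b-3p array, and E2F2, which was below the floor on all arrays. Without the control array, 17 of the 19 were 2-fold higher with miR-151a-5p than with miR-27b-3p (1.62% of all genes), at a median of 1.55, beside 1.23 for the supply genes and -0.02 for all genes. The part of these genes in the differences of the supply genes was not tested. In RNA from whole cultures a larger share of cells in S phase or in cycle and more RNA per cell cannot be told apart.

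**Figure D5:**
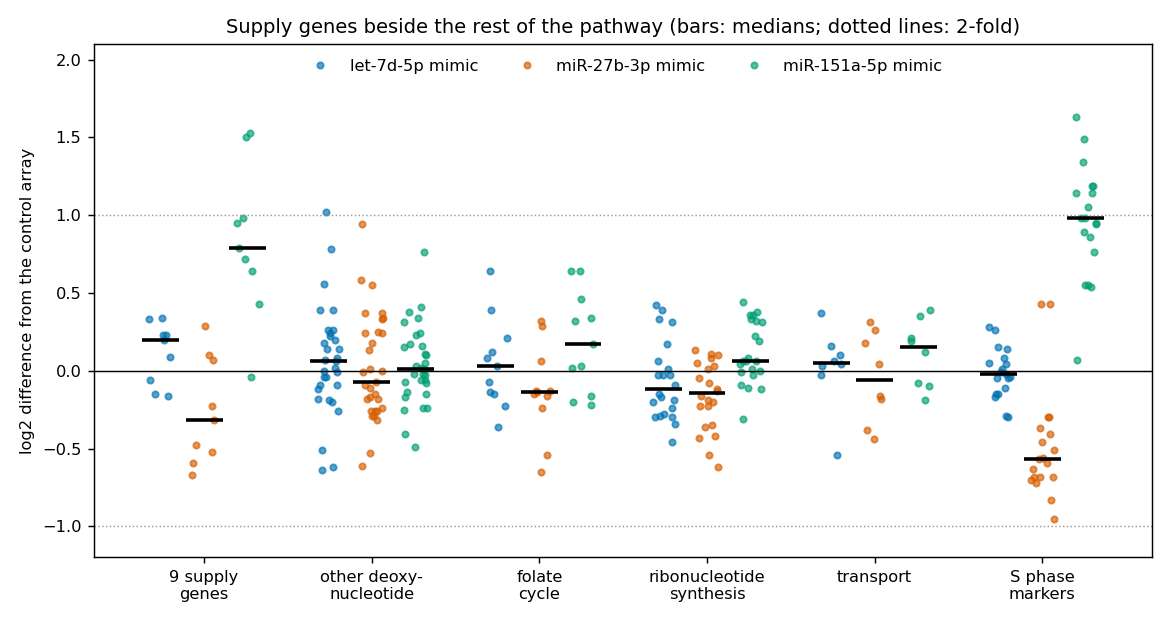
Log2 difference from the control array (vertical axis) of single genes in the 9 supply genes, 4 further pathway lists and the list of S phase and cycling markers, with 1 colour per mimic, a bar at each median and dotted lines at 2-fold. On the miR-151a-5p array the medians of the supply genes and of that last list were 0.79 and 0.98, and those of the other 4 lists lay between 0.01 and 0.17.

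Among genes above the floor on at least 1 array, those whose 3 differences from the control lay nearest to those of RRM2 were CCNE2, at a Euclidean distance of 0.15 on the log2 scale, WDR76 (0.18), ANLN (0.18), ORC6 (0.22) and HJURP (0.25). Nearest to TK1 were NCAPG2 (0.16), SHCBP1 (0.17), CDT1 (0.21), KIF2C (0.24) and APOBEC3B (0.28). CCNE2 differed by -0.05 with let-7d-5p, -0.41 with miR-27b-3p and 1.49 with miR-151a-5p, against -0.15, -0.52 and 1.5 for RRM2. NCAPG2 differed by 0.28, -0.43 and 1.39, against 0.23, -0.48 and 1.53 for TK1. The likeness rests on 3 values per gene from 4 arrays and is a description.

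The arrays were alike as a whole, with Pearson correlations across genes between 0.993 and 0.995 and median log2 signals between 7.24 and 7.29. Of 13 measured monocyte and macrophage markers 12 lay above the floor on every array, and their median differences from the control were -0.02, -0.06 and -0.03, with CD68, CD14 and LYZ within 0.23 of it. CD4 was at -0.88 on the miR-151a-5p array and CD163 at 0.74 on the let-7d-5p array. The summed linear signal of this list was 395000 with let-7d-5p, 393000 with miR-27b-3p and 395000 with miR-151a-5p, against 394000 on the control array. Of the markers of other cell types, 6 to 7 of 11 for T and NK cells, 3 of 5 for B cells, 2 of 8 for epithelium and 5 to 6 of 9 for fibroblasts and endothelium lay above the floor. The sum over the B cell list was 527 with miR-151a-5p and 602 with miR-27b-3p, against 581 on the control array. The sums over the other lists were 2400 to 3340 on the mimic arrays, against 2980 on the control array, for T and NK cells, 623 to 885, against 686, for epithelium and 16700 to 18500, against 18800, for fibroblasts and endothelium. With miR-151a-5p the sum was above the control for epithelium (778) and below it for the other lists of this kind. The part of other cell types in the differences of the supply genes was not tested.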

How the data were processed

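RNA of 4 THP-1 cultures, 1 per mimic, was hybridised to Affymetrix Clariom S human arrays. The deposited values are log2 signals per probe set, and RMA and Transcriptome Analysis Console 4.0 are credited to the submitters' processing notes. RMA corrects background, equalizes arrays and summarizes probes, and thereby hides any overall change in RNA content. The values carry 2 decimals, so a difference can be off by up to 0.01 through rounding. A genome build for the probe sets was not given in the sources used here, and no gene coordinates are printed beside the array values. The labels name Trizol and the methods an RNeasy kit for RNA extraction.

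Of 21448 probe sets, 17709 (82.6%) had 1 symbol in the platform annotation, 0 had several and 3739 had none. Where a gene had more than 1 probe set (20 genes), that of highest mean signal stood for it. RefSeq holds named pseudogenes of RRM2 (3), TYMS (2) and DUT (8), and DUT-AS1, MIR4261 and TLDC2 overlap DUT, RRM2 and SAMHD1. Whether the probes tell these apart was not tested.

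A difference is a log2 value on 1 array minus that on another, with 2-fold as the size rule. No test was possible with 1 array per group. The number of arrays limits the precision. Members, lists and rules were chosen with earlier results of these data known. Named from the lists were genes past 2-fold on any mimic array, or the 3 with the largest differences, above the floor. The count of genes past 2-fold was run on simulated arrays with planted changes far past 2-fold and less noise than here. That run could only check the code and does not bear on the calls in these data. Alternatives were repeated quantile normalization, centring, a floor, a pseudocount of 32, the mean of probe sets, a filter at the floor, another reference and other size rules. Centring used the median of the genes above the floor on each array. Listed genes without a symbol match were not analysed here. Calculations used Python 3.11.15, numpy 2.4.6, pandas 2.3.3 and matplotlib 3.10.9.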

Additional observations from a re-analysis of the deposited data

How the results depend on the processing

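No paired analysis was possible because each group held 1 array and the labels carry no replicate numbers, and for the same reason no array could be left out. Outside the change of reference and of size rule, all 324 member differences kept their sign and moved by at most 0.21 on the log2 scale, under repeated quantile normalization, centring, the floor, the pseudocount, the mean of probe sets and the filter. The floor, the mean of probe sets and the filter could not move a member, since each had 1 probe set and lay above the floor on every array. Only repeated quantile normalization, centring and the pseudocount could change these values. Centring alone changed which members passed 2-fold among these settings. RRM1 with miR-151a-5p against the control stood at 1.01 in place of 0.98, giving 3 of 9 (1.13% of all genes). DUT with miR-151a-5p against miR-27b-3p stood at 0.99 in place of 1.02, giving 5 of 9. A move was judged against the spread over genes, since there was none over cultures. With the mean of the other mimic arrays as reference, which itself includes the array on which the members were highest or lowest, the median of the members was -0.17 for let-7d-5p in place of 0.20 and -0.83 for miR-27b-3p in place of -0.32. There, 6 of 27 differences changed sign, namely RRM1, TK1, DCK and SAMHD1 with let-7d-5p and DCK and SAMHD1 with miR-27b-3p, none of them past 2-fold. The count past 2-fold became 5 higher for miR-151a-5p (1.05% of all genes) and 3 lower for miR-27b-3p (0.718% of all genes). At 3-fold the counts were 0 higher for miR-151a-5p against the control (0.0226% of all genes), 3 against miR-27b-3p and 1 against let-7d-5p. At 1.5-fold they were 7 higher for miR-151a-5p against the control (5.29% of all genes) and 5 against let-7d-5p. In the other direction, 2 were lower for miR-27b-3p against the control (4.7% of all genes) and 2 against let-7d-5p. Between mimic arrays the share of all genes was computed only at 2-fold on the deposited values. Their counts at other settings therefore have no background beside them.

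The share of all genes past 2-fold was less stable, and its values are given as higher and lower for each mimic against the control. With values below the floor set to the floor it was 0.192% and 0.164% for let-7d-5p, 0.204% and 0.26% for miR-27b-3p and 0.531% and 0.124% for miR-151a-5p. With the pseudocount it was 0.0961% and 0.0565%, 0.107% and 0.102%, and 0.351% and 0.0283% in the same order. Centring gave 0.311% lower for miR-27b-3p. The other reference gave 0.181% and 0.237% for let-7d-5p and 0.249% higher for miR-27b-3p. At 3-fold it was 0.0226% and 0.00565%, 0.0396% and 0.017%, and 0.0226% and 0.0226%, and at 1.5-fold 4.42% and 3.56%, 5.07% and 4.70%, and 5.29% and 3.57%. The filter at the floor changed the base of the share to genes above the floor on at least 1 of the compared arrays. These were 11876 genes for let-7d-5p, 11911 for miR-27b-3p and 11880 for miR-151a-5p, in place of 17687. The shares were then 0.421% and 0.295% for let-7d-5p, 0.495% and 0.47% for miR-27b-3p and 0.951% and 0.278% for miR-151a-5p. They cannot be read as shares of all genes. All members lay above the floor. Why the share of all genes was less stable was not tested.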

Other observations

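Counterparts of the supply enzymes that serve non-dividing cells or mitochondria were singled out after their values were seen. RRM2B, the p53-inducible small subunit of ribonucleotide reductase, had log2 signals of 11.25 with let-7d-5p, 11.48 with miR-27b-3p and 11.13 with miR-151a-5p, against 11.11 on the control array. It differed by 0.37 on the miR-27b-3p array, where RRM2 was at -0.52, and by 0.02 on the miR-151a-5p array, where RRM2 was at 1.5. TK2, the mitochondrial thymidine kinase, had log2 signals of 8.44, 8.76 and 8.23 with let-7d-5p, with miR-27b-3p and with miR-151a-5p, against 8.18 on the control array. With miR-151a-5p set against miR-27b-3p, TK2 was at -0.53 and TK1 at 2.01. DGUOK, the mitochondrial kinase of purine deoxynucleosides, differed by -0.20, -0.11 and -0.08 from the control, whereas DCK differed by 0.23, 0.07 and 0.72. No test of these differences was possible with 1 array per group.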
